A study of Mus musculus with 15 samples.

Results

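CSR-HTGTS junctions that join the 5′Sμ bait to Sγ1 with long microhomology (MH) were examined in stimulated splenic B cells. MH is the run of bases at a junction that belongs both to the bait and to the prey. Members were selected on that length, as rows whose prey lies in the 20-kb Sγ1 window (mm9, chr12:114562000-114581999) and whose bait and prey alignments overlap by 6 bp or more on the read. This rule took 1015 of 15503 Sγ1 junctions without insertion (6.55%), out of 18439 Sγ1 junctions and 42200 junctions in all. The length chose the members, so their share is described and not tested, with 95% Wilson intervals that cover counting error alone.

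The study prepared libraries from splenic B cells of mice lacking SHLD1, XLF or both and of WT mice, matched by sex and age, activated by LPS, IL-4 and dextran-coupled antibody to IgD. Tables with junction positions were used for 10 libraries of C57BL/6 mice, which by genotype label are WT (n = 3), Shld1-/- (n = 2), XLF-/- (n = 3) and Shld1-/-XLF-/- (n = 2). For Shld1-/- 1 and Shld1-/-XLF-/- 2, only lists of MH lengths were used, and 3 further libraries are labelled WT of the 129s strain. Numbers 1 to 3 name libraries within a label in the order of deposit and are not mouse numbers. The labels also give a target locus for each library, which is a deletion from Sm to Sa on the non-coding allele for WT, the same with Ia removed for Shld1-/- and XLF-/-, and in addition an insertion of CBEs beyond Cg2a for Shld1-/-XLF-/-. The study's methods describe no such alleles for these mice, and the tables do not settle which description holds.

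The genotype label and the genotype under which the study plots a library's Sγ1 junction count are the same for 4 of the 10 libraries and differ for 6. WT 1, Shld1-/- 2 and XLF-/- 3 are plotted as WT. WT 2, Shld1-/- 3 and Shld1-/-XLF-/- 1 are plotted as Shld1-/-, WT 3 and XLF-/- 1 as Xlf-/-, and XLF-/- 2 and Shld1-/-XLF-/- 3 as Shld1-/- Xlf-/-. Values are therefore given for each library with both names, tests between genotypes use the labels alone, and no mean or test was made over the plotted genotypes. The 10 tables held 1590 to 8531 junctions, and no read name occurred in more than 1 library.

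Class switch recombination joins a break in Sμ, the donor switch region upstream of Cμ, to a break in an acceptor region such as Sγ1, which lies upstream of Cγ1. Both breaks start from deamination of cytosines by AID, which prefers motifs such as AGCT that are dense in switch regions. Classical non-homologous end joining, in which XLF helps to bridge and ligate ends, makes blunt joins or joins with short MH. SHLD1 belongs to the Shieldin complex, which acts below 53BP1 and RIF1 to limit resection of broken ends. Resection exposes single strands, on which alternative end joining can pair longer MH. Switch regions are long arrays of similar repeats, so a given short word of the donor can occur many times in the acceptor.

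The sequences behind the commonest long MH are shown first. The bait is the start of the read, and its first bases, shown here, run along the minus strand of chr12:114664785-114664909 in 5′Sμ, upstream of the constant region exons. The Sγ1 stretch is the minus strand of chr12:114574290-114574429, where the most used prey position lies. Both were rebuilt from read bases that the alignments mark as identical to mm9, since the genome sequence at hand is of another build. Capitals mark the bait words and the Sγ1 words that pair in the commonest members.
5′Sμ bait: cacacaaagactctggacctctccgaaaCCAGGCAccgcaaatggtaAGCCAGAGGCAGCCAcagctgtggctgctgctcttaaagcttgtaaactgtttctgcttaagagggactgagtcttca
Sγ1 stretch: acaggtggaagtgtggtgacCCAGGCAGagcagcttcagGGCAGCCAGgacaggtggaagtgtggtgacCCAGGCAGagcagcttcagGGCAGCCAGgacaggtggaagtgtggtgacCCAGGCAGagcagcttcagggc

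Sγ1 here repeats with a unit of 49 bp, and the units of this stretch carry CCAGGCAG and GGCAGCCAG, within which the 4 commonest words are found. The next sequences are joins as they were read, with 15 bases of bait on the left, the MH in capitals and 20 bases of Sγ1 on the right. They show 1 join for each of the 4 commonest MH words and 1 for the commonest word of inversional joins.
CCAGGCA join at chr12:114574409: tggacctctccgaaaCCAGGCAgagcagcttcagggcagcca
AGCCAG join at chr12:114573996: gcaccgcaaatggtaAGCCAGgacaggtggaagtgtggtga
GGCAGCCA join at chr12:114574096: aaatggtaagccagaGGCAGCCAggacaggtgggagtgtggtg
AGGCAG join at chr12:114571684: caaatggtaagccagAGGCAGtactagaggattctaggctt
GCTGCTCT inversional join at chr12:114574543: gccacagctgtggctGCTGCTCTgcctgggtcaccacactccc

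Long MH made up a smaller part of Sγ1 junctions in the libraries plotted as WT than in the other libraries. It reached 77 of 1947 junctions without insertion in WT 1 (3.95%, interval 3.18 to 4.92%), 208 of 4285 in Shld1-/- 2 (4.85%, interval 4.25 to 5.54%) and 181 of 3973 in XLF-/- 3 (4.56%, interval 3.95 to 5.25%). These 3 intervals overlap each other and lie below those of the other 7 libraries. In the libraries plotted as Shld1-/-, it was 47 of 458 in WT 2 (10.3%, interval 7.81 to 13.4%), 90 of 753 in Shld1-/- 3 (11.95%, interval 9.83 to 14.5%) and 61 of 660 in Shld1-/-XLF-/- 1 (9.24%, interval 7.26 to 11.7%). In those plotted as Xlf-/-, it was 69 of 918 in WT 3 (7.52%, interval 5.98 to 9.40%) and 179 of 1702 in XLF-/- 1 (10.5%, interval 9.15 to 12.1%). Those plotted as Shld1-/- Xlf-/- had 74 of 545 in XLF-/- 2 (13.6%, interval 10.96 to 16.7%) and 29 of 262 in Shld1-/-XLF-/- 3 (11.1%, interval 7.82 to 15.4%). Most intervals of these 7 libraries overlap, although WT 3 ends below the start of Shld1-/- 3 and XLF-/- 2.

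By label, the share spread as widely within groups as between them. The WT libraries had a mean of 7.24% ± 3.16 (SD, n = 3) and those labelled XLF-/- 9.55% ± 4.59 (SD, n = 3). The mean was 8.40% ± 5.02 (SD, n = 2) under the label Shld1-/-, and the Shld1-/-XLF-/- libraries reached 10.2% ± 1.29 (SD, n = 2). Each label pools libraries plotted under different genotypes. Among junctions with MH over 3 bp, the part that reached 6 bp or more was between 29.3% in Shld1-/-XLF-/- 3 and 40.2% in XLF-/- 3, so it was not lower in the libraries plotted as WT.

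**Figure D1:**
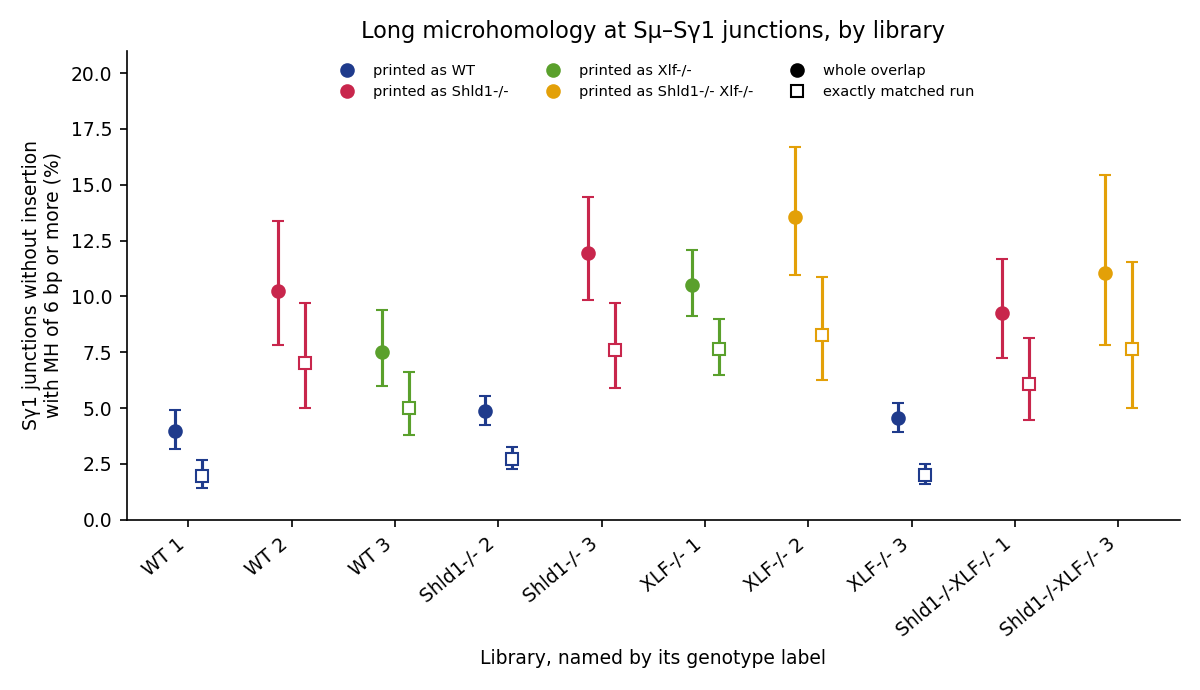
Percentage of Sγ1 junctions without insertion that have MH of 6 bp or more, for each of the 10 libraries named by label and coloured by the genotype plotted by the study, with 95% Wilson intervals. Filled circles use the whole overlap and open squares only the exactly matched run, and the 3 libraries plotted as WT are lowest on both measures.

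Because the overlap may hold mismatches, each alignment was read base by base. Of the members, 600 (59.1%) had an overlap without mismatch or gap, and 415 had at least 1. The error lay in the bait alignment in 181, in the prey alignment in 206 and in both in 28. Errors were commoner in longer overlaps, with 24.9% of members of 6 bp, 30.3% of 7 bp, 41.9% of 8 bp and 73.2% of 9 bp, and in 127 of 129 members of 10 bp or more. When MH was trimmed to the run that matched exactly between the last prey error and the first bait error, 605 junctions of 6 bp or more were left, of 15481 without insertion (3.91%). The longest exact run was 10 bp, in 2 members of 2 libraries with the word GAGTCTTCAG at chr12:114564896.

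Trimming lowered the share in every library and left the libraries plotted as WT below the others. The exact share was 1.95% (interval 1.43 to 2.67%) in WT 1, 2.73% (2.29 to 3.27%) in Shld1-/- 2 and 2.02% (1.62 to 2.50%) in XLF-/- 3, all plotted as WT. Among the other 7 it was between 5.02% (3.79 to 6.63%) in WT 3 and 8.27% (6.24 to 10.9%) in XLF-/- 2. Members with an exact overlap made up 44.2% to 56.2% in the libraries plotted as WT and 59.5% to 72.6% in the others.

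The length spectrum fell steeply above the minimum. Just outside it were 631 junctions of 5 bp, and just inside it 401 members of 6 bp. There were 241 members of 7 bp, 203 of 8 bp, 41 of 9 bp and 64 of 10 bp. A further 23 had 11 bp, 29 had 12 bp, 5 had 13 bp, 4 had 14 bp, and 16, 19, 29 and 41 bp occurred in 1 member each. The median length was 7 bp in 9 libraries and 6 bp in WT 2. Deletional and inversional members had the same median of 7 bp.

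**Figure D2:**
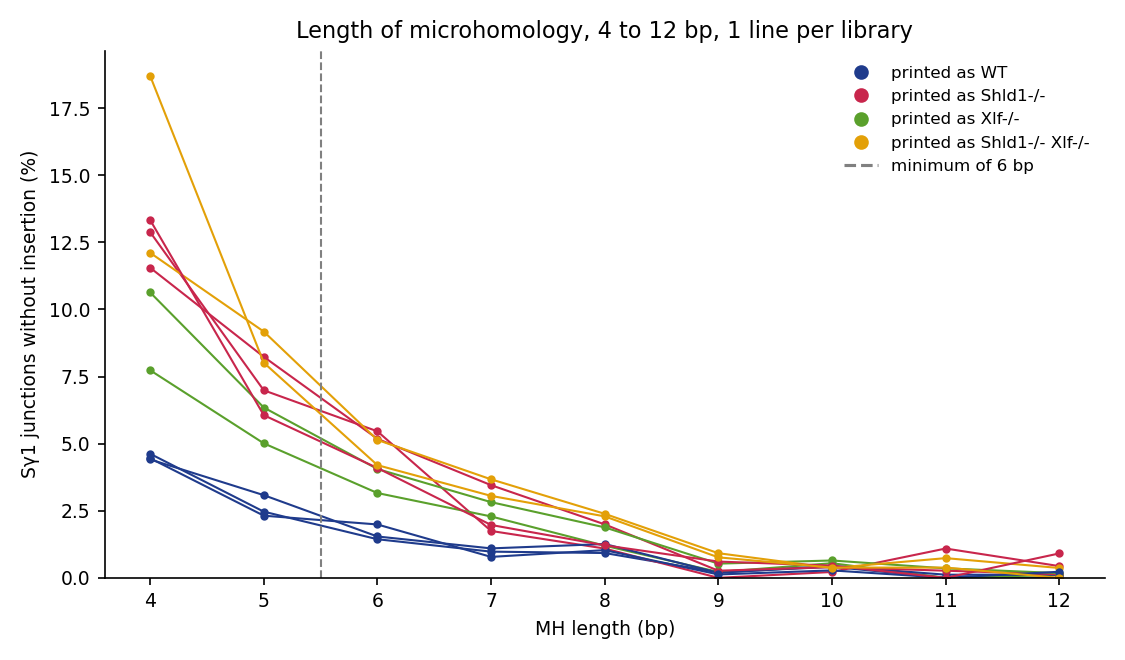
Percentage of Sγ1 junctions without insertion (vertical axis) at each MH length from 4 to 12 bp (horizontal axis), with 1 line for each of the 10 libraries, coloured by the genotype plotted by the study. The 3 libraries plotted as WT lie lowest from 4 to 7 bp, and the lines come close together from 9 bp on.

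The longest overlaps were not long exact matches. The 41-bp overlap, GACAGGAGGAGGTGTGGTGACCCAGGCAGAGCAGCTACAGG, held 5 mismatches or gaps, and the 29-bp overlap, TGTGGTGACCCAGGCAGAGCAGCTACAGG, held 3. Both came from Shld1-/- 2, and in both the alignment listed as bait lay in Sγ1, since each was the second junction on its read. These 2 were the only members whose listed bait lay outside 5′Sμ. The next were a 19-bp overlap in Shld1-/- 2, GCAGCCCCAGCTGTGGCTG with 4 errors, a 16-bp overlap in XLF-/- 3, AGCCAGAGGGCAGCCA with 3, and a 14-bp overlap in XLF-/- 3, TACAATTGTGTGGA with 2.

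Few words carried most of the recurrence. The members used 292 distinct MH words, of which 190 were seen in 1 member, while the 8 commonest were found in 449 members (44.2%). CCAGGCA, at bait bases 29 to 35, was the MH of 123 members in all 10 libraries, 121 of them exact. It has 52 copies on the transcribed-sense strand of the Sγ1 window, and members used 39 of these positions. Over all positions of its members, exact copy or not, 24 of the 40 gaps between neighbours were 49 bp, the repeat unit. AGCCAG, at bait bases 48 to 53, followed with 113 members in 10 libraries and has 53 such copies, of which 36 were used.

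GGCAGCCA and AGGCAG overlap in the bait, at bases 55 to 62 and 54 to 59. GGCAGCCA was the MH of 93 members in 8 libraries and used 17 of its 19 copies in the window, the largest part among the 4 commonest words. AGGCAG was that of 57 members in 7 libraries and used 35 of its 72 copies. These 4 words, all from the first 62 bait bases, made up 386 members (38.0%), and 2 of the 386 were inversional. On the antisense strand of the window, where an inversional join would find its word, copies are few. CCAGGCA has 1 there, AGCCAG 9, GGCAGCCA 0 and AGGCAG 9.

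The other words of the 8 were rarer and mostly inexact. AGCCAGAG occurred in 18 members (5 exact), GCAGCCACAG in 16 (none exact), CCAGGCACCGCA in 15 (none exact) and CAGCTG, a palindrome, in 14 (9 exact). GCAGCCACAG and CCAGGCACCGCA have no exact copy in the window, and each overlaps a word of the 4 commonest in the bait and runs beyond it. The window was covered to 99.9% by bases read as identical to mm9, so a copy in the remainder would not be counted.

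The part of members that used the 4 commonest words differed between libraries. It was lowest in XLF-/- 2 (25.7%, interval 17.1 to 36.7%), plotted as Shld1-/- Xlf-/-, and highest in XLF-/- 1 (50.3%, interval 43.0 to 57.5%), plotted as Xlf-/-. It was 37.7% in WT 1, 42.8% in Shld1-/- 2 and 32.6% in XLF-/- 3, plotted as WT, and 36.2% in WT 2, 28.9% in Shld1-/- 3 and 31.1% in Shld1-/-XLF-/- 1, plotted as Shld1-/-. It was 43.5% in WT 3, plotted as Xlf-/-, and 27.6% in Shld1-/-XLF-/- 3, plotted as Shld1-/- Xlf-/-. The intervals of the lowest and the highest library do not overlap, and most others do.

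Members ended at few bait bases. Of the 1013 members with bait in 5′Sμ, 532 (52.5%) ended at the 5 commonest bait ends, which are bait bases 62, 35, 53, 59 and 65. Of the 14476 junctions with MH of 0 to 5 bp and bait in 5′Sμ, 11.6% ended there. Members had 93 distinct bait ends and shorter junctions 334, in unequal numbers of junctions. Bait base 62, the end of GGCAGCCA, held 148 members in 9 libraries, and bait base 35, the end of CCAGGCA, held 135 in 10. The part of members at these 5 ends was between 36.7% in Shld1-/- 3 and 62.6% in Shld1-/- 2, whereas that of shorter junctions was between 8.70% and 14.1%. These ends were picked on the members' counts, so no test was made.

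**Figure D3:**
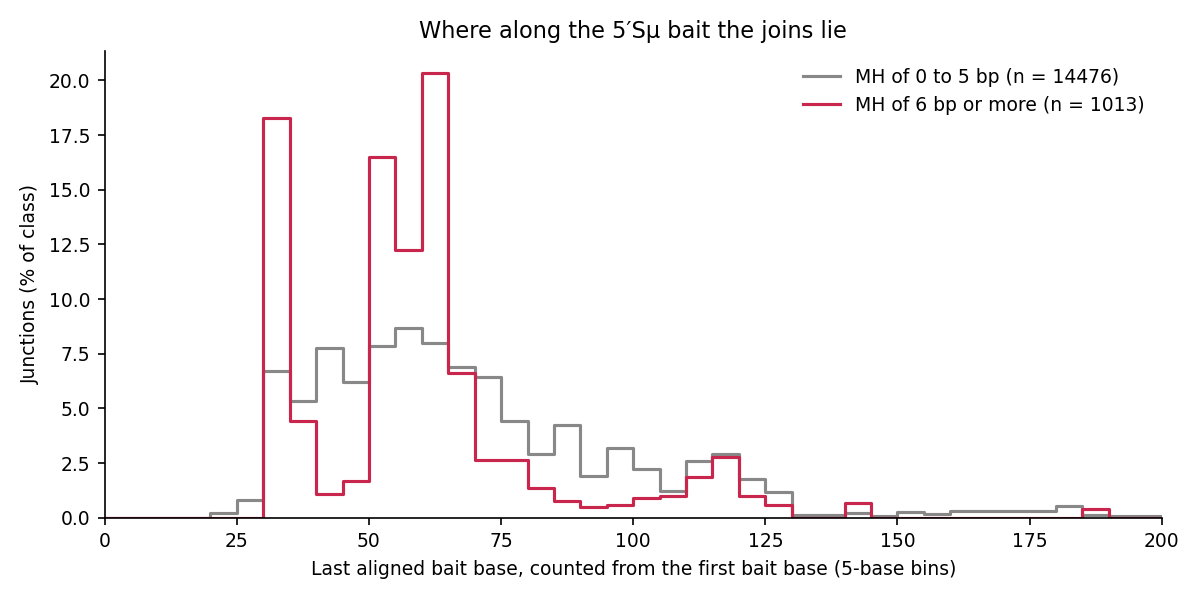
Percentage of junctions of each class (vertical axis) by the last aligned bait base (horizontal axis, counted from the first bait base, 5-base bins), for MH of 0 to 5 bp in grey and of 6 bp or more in red, over the 10 libraries. Only junctions with bait in 5′Sμ are counted. Members pile up where the 4 commonest words end, between bases 30 and 35 and between 50 and 65, while shorter junctions are spread along the bait.

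The median number of bait bases was smaller for members than for shorter junctions. It was 59 bases against 65 in the median library, and lower by 6.15 bases ± 3.67 (SD, n = 10) in the mean over libraries. It was lower in 9 of 10 libraries and equal in Shld1-/-XLF-/- 3. The shorter bait of members is measured to the end of the overlap, which counts the MH as bait. The rule used this bait end, so the difference is a description and supports no comparison. The difference was -1.90 bases without rows marked for mapping quality and -3.55 bases with the minimum at 5 bp.

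Prey positions recurred between libraries. The members lay at 566 distinct positions with strand, of which 386 held 1 member and 180 held 2 or more, with 629 members (62.0%) at the latter. Of the shorter junctions, which are more numerous, 74.7% lay at a position with at least 2. Members from 2 or more libraries were found at 148 positions. Counted by position, strand, bait end and length together, 122 of 648 distinct junctions were found in 2 or more libraries, with 439 members, and the most widespread in 7 libraries. Since the libraries share no read, these are separate reads of the same junction in different libraries. Counts between libraries are not given for shorter junctions, so such sharing is not shown to be particular to members.

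The 5 positions with the most members lay in the repeats of core Sγ1, and all were deletional. At chr12:114574409 were 13 members from 8 libraries, of which 5 came from Shld1-/- 3, 2 from XLF-/- 3 and 1 each from WT 1, WT 3, Shld1-/- 2, XLF-/- 1, Shld1-/-XLF-/- 1 and Shld1-/-XLF-/- 3, and 11 of the 13 used CCAGGCA. At chr12:114574289 were 12 from 5 libraries, of which 7 came from XLF-/- 3, 2 from Shld1-/- 3 and 1 each from Shld1-/- 2, XLF-/- 1 and Shld1-/-XLF-/- 1, with AGCCAG in 8. At both positions 12 members carry the mapping-quality mark, and 4 and 5 members, in this order, are marked as duplicates.

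The next positions held 9 members each, from 3 to 5 libraries. GGCAGCCA was used by 7 of the 9 at chr12:114573657, from 5 libraries with 4 in Shld1-/-XLF-/- 1, and by all 9 at chr12:114574096, from 4 libraries with 4 in Shld1-/- 2. AGCCAG was used by all 9 at chr12:114573996, of which 5 came from WT 2, 3 from Shld1-/- 2 and 1 from XLF-/- 1. At these positions, in the order named, 6, 7 and 7 members carry the mapping-quality mark. Duplicate marks are on 2, 5 and 5 members in the same order.

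Within a library, 109 junctions were read more than 1 time, and counting each a single time leaves 850 of the 1015 members. The repeated reads had more than 1 read length in 73 of the 109 sets, and 163 members are marked as duplicates by the pipeline. Repeats were 22.9% of members in XLF-/- 1, the most, and 3.45% in Shld1-/-XLF-/- 3, the fewest. Reads carry no molecular identifier, so repeated reads of a junction from PCR and repeated joins cannot be told apart. With repeats collapsed, members made up 6.20% of junctions without insertion.

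Of the 1015 members, 929 (91.5%) lay in the 8-kb core of Sγ1 (chr12:114569000-114576999), 16 upstream of it and 70 downstream, towards Cγ1. Of the shorter junctions, 13478 of 14488 (93.0%) lay in the core, so that the members' share was near this background. Pooled over libraries, 60 of 913 deletional members in or downstream of the core lay downstream (6.57%), against 632 of 12863 shorter junctions (4.91%). Within libraries the order was mostly the other way. Among deletional junctions in or downstream of the core, the part lying downstream was lower for members than for shorter junctions in 9 of 10 libraries, with a mean difference of -5.99 percentage points ± 7.60 (SD, n = 10; two-sided exact permutation test, p = 0.00586, adjusted p = 0.0117 over 8 tests). It lost the threshold with the minimum at 5 bp (difference -3.08 points, exact permutation test, adjusted p = 0.168), with identical junctions collapsed (difference -5.94 points, exact permutation test, adjusted p = 0.0664) and without rows marked for mapping quality (-5.69 points, adjusted p = 0.0889). The rule requires prey that shares 6 bp or more with the bait, so members can lie only where such words occur. For each of the 4 commonest words, the commonest gap between the positions of its members was 49 bp, the repeat unit. Members and shorter junctions may therefore not have had equal room downstream of the core, which was not tested.

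The downstream difference was uneven across libraries. For WT 1, Shld1-/- 2 and XLF-/- 3, plotted as WT, downstream members were 0 of 71 (which allows a share of up to 4.23%), 0.513% and 0 of 177 (which allows up to 1.69%), against 0.504%, 0.617% and 0.644% of shorter junctions. For WT 2, Shld1-/- 3 and Shld1-/-XLF-/- 1, plotted as Shld1-/-, they were 18.9%, 22.6% and 15.1%, against 20.8%, 28.6% and 27.7%. For WT 3 and XLF-/- 1, plotted as Xlf-/-, they were 1.59% and 6.51%, against 4.18% and 6.37%. For XLF-/- 2 and Shld1-/-XLF-/- 3, plotted as Shld1-/- Xlf-/-, they were 21.9% and 18.2%, against 35.4% and 40.3%. The largest differences were in these last 2 libraries and in Shld1-/-XLF-/- 1, and XLF-/- 1 was the only library in which the value of members was the higher.

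**Figure D4:**
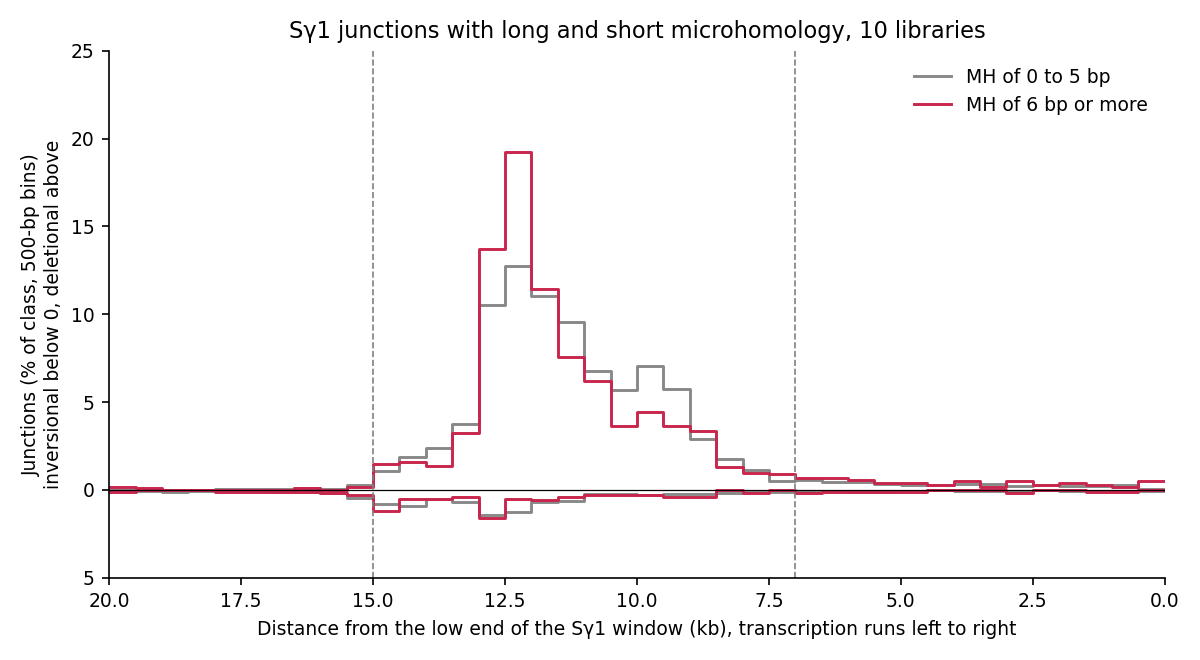
Percentage of junctions of each class (vertical axis, 500-bp bins, deletional above 0 and inversional below) along the Sγ1 window (horizontal axis, kb from the low coordinate, with transcription from left to right), for MH of 0 to 5 bp in grey and of 6 bp or more in red, over the 10 libraries. Dashed lines mark the core, which holds 91.5% of the members and 93.0% of the shorter junctions.

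Deletional members joined prey on the same strand as the bait and inversional members on the opposite strand, so that only the former can give a switched Igh. Of the members, 919 were deletional and 96 inversional (9.46%). The inversional part of members was 7.79% in WT 1, 6.25% in Shld1-/- 2 and 2.21% in XLF-/- 3, plotted as WT, against 4.44%, 4.37% and 5.49% of shorter junctions. It was 19.1% in WT 2, 30.0% in Shld1-/- 3 and 9.84% in Shld1-/-XLF-/- 1, plotted as Shld1-/-, against 21.2%, 31.1% and 32.1%. It was 7.25% in WT 3 and 5.03% in XLF-/- 1, plotted as Xlf-/-, against 8.83% and 16.3%. It was 13.5% in XLF-/- 2 and 24.1% in Shld1-/-XLF-/- 3, plotted as Shld1-/- Xlf-/-, against 33.1% and 39.1%. Members were less often inversional than shorter junctions in 8 of 10 libraries, and the exceptions were WT 1 and Shld1-/- 2. The 4 commonest words, used by 38.0% of members, have 19 to 72 sense copies in the window but 0 to 9 antisense copies. Members and shorter junctions may therefore not have had equal room for inversional joins, which was not tested.

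The mean difference over libraries was -7.08 percentage points ± 9.20 (SD, n = 10), which did not pass the adjusted threshold (two-sided exact permutation test, p = 0.0430, adjusted p = 0.0688 over 8 tests). Without WT 1 it was -8.24 points (exact permutation test, adjusted p = 0.0250), and with MH trimmed to the exact run it was -7.13 points (adjusted p = 0.0312). With the minimum at 5 bp it shrank to -0.647 points (exact permutation test, adjusted p = 0.846). By label, the inversional part of members was higher by 8.40 points with SHLD1 loss within XLF labels (exact permutation test, p = 0.22, adjusted p = 0.293, where the smallest p possible is 0.01) and lower by 2.81 points with XLF loss within SHLD1 labels (p = 0.60, adjusted p = 0.60, smallest p possible 0.0167). Neither passed the threshold, and both tests mix libraries plotted under different genotypes.

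The commonest words of inversional members were not among the 4 commonest of all members. GCTGCTCT, which starts at bait base 74 and has 28 copies on the antisense strand of the window, was the MH of 10 inversional members at 7 positions in 5 libraries. TGGCTGC, at bait base 69, was that of 5 members in 2 libraries. CACCTGT and CTGGGTCAC followed with 4 inversional members each, in 4 and 3 libraries. Neither of these has an exact copy in the bait bases shown above. The inversional positions with the most members held 4 each, at chr12:114574543 (GCTGCTCT, 3 from Shld1-/- 3 and 1 from WT 1) and at chr12:114574530 (TGGCTGC, all from Shld1-/- 3, 3 marked as duplicates). An 11-bp overlap at chr12:114576848 was found in 3 inversional members of 3 libraries. The palindrome CAGCTG, which reads the same on both strands, was the MH of 3.

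**Figure D5:**
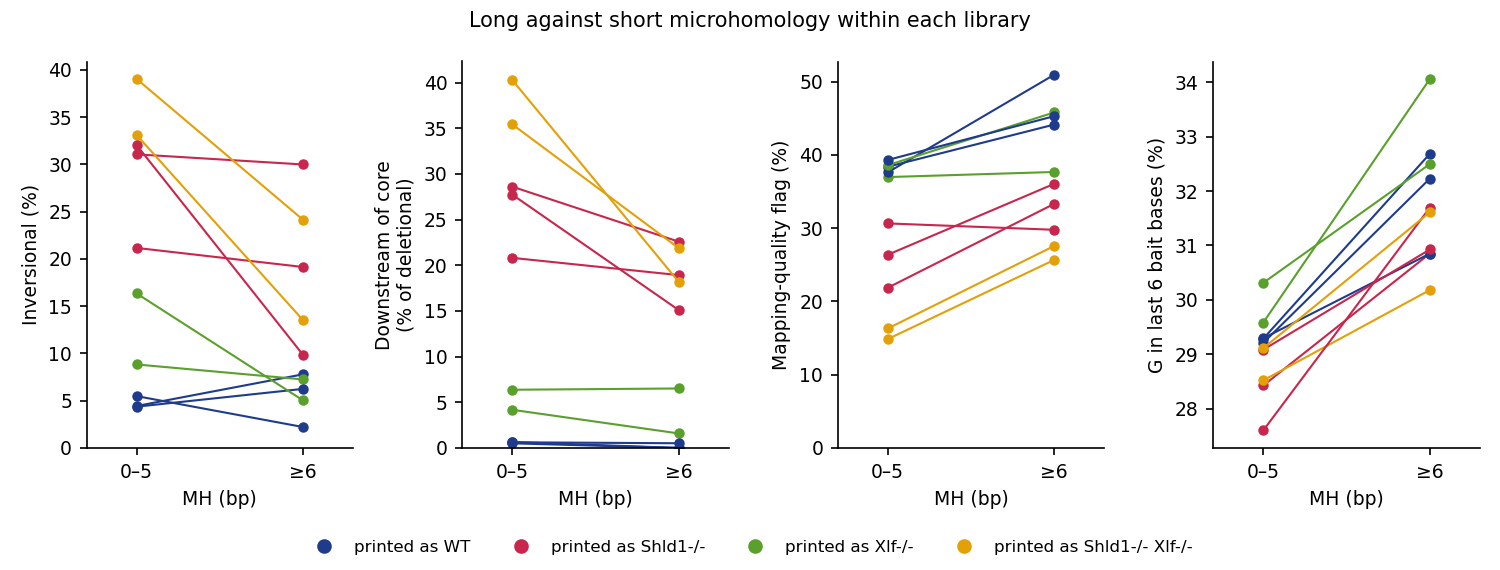
Within each of the 10 libraries (lines, coloured by the genotype plotted by the study), the percentage of inversional junctions, of deletional junctions downstream of the core, of rows marked for mapping quality and of G among the last 6 bait bases, for MH of 0 to 5 bp and of 6 bp or more (the G axis does not start at 0). The mapping-quality mark was higher for members in 9 of 10 libraries, and the downstream part was lower in 9 of 10. The G values describe bases that the rule used and support no comparison.

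AGCT, a motif that AID prefers and that reads the same on both strands, was looked for in the bait bases at the join. It stood within the last 6 aligned bait bases of 6.57% of members and 8.10% of shorter junctions in the median library. The mean difference was -0.795 points ± 2.77 (SD, n = 10). It was -4.10 points with MH trimmed to the exact run and 5.04 points with the minimum at 5 bp, so its direction rests on how MH is counted. AGCT occurs at 192 places of the Sγ1 window and at 2 in the bait bases shown above, and 88 members (8.67%) held it in the MH word. It was in the word of 16 of 96 inversional members (16.7%) and of 72 of 919 deletional ones (7.83%).

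G made up 31.7% of the last 6 bait bases of members against 29.2% for shorter junctions in the median library, with a mean difference of 2.71 points ± 1.01 (SD, n = 10) and a higher value in 10 of 10 libraries. With the minimum at 7 bp the difference was 0.627 points. In members the rule places these 6 bases within the MH, so that they pair with Sγ1, whereas in shorter junctions they reach beyond it. The AGCT and G values are therefore descriptions of bases that the rule used and support no comparison.

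Rows that the pipeline marked for mapping quality were commoner among members. The mark was on 423 members (41.7%), and its share was 7.54 points ± 4.73 (SD, n = 10) higher than in shorter junctions of the same library, in 9 of 10 (two-sided exact permutation test, p = 0.00586, adjusted p = 0.0117 over 8 tests). The exception was WT 2, with 29.8% against 30.7%. The mark was carried by 84 of the 123 CCAGGCA members, 77 of 113 AGCCAG members, 77 of 93 GGCAGCCA members and 26 of 57 AGGCAG members, so the repeat copy named for many of these joins rests on a marked alignment. Without marked rows, 592 members of 9898 junctions without insertion were left (5.98%). The difference in the mark was 5.65 points with identical junctions collapsed (exact permutation test, adjusted p = 0.0573), 1.90 points with the minimum at 5 bp (adjusted p = 0.328) and 8.19 points with the minimum at 7 bp (adjusted p = 0.141).

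Set against prey elsewhere, the share of long MH at Sγ1 lay between that of joins close to the bait and that of joins to other chromosomes. Over the 10 libraries it was 4.38% within 10 kb of the bait, 6.55% at Sγ1 and 17.3% on other chromosomes, or 2.18%, 3.90% and 11.7% with exact runs alone. Close to the bait the libraries ranged from 1.43% in WT 1 to 7.95% in XLF-/- 2, and at Sγ1 from 3.95% to 13.6% in the same libraries. On other chromosomes, the range was narrower, from 14.4% in Shld1-/-XLF-/- 1 to 19.9% in Shld1-/-XLF-/- 3, and the intervals of all 10 libraries overlap. These are descriptions, since MH length is the measure that chose the members.

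The 2 lists of MH lengths hold no positions, no insertion and no length over 10 bp. MH of 6 bp or more made up 58 of 1028 entries in Shld1-/- 1 (5.64%, interval 4.39 to 7.22%) and 49 of 1093 in Shld1-/-XLF-/- 2 (4.48%, interval 3.41 to 5.88%). Both held mostly 6 bp (27 and 19) and 7 bp (15 and 16), with 4 and 2 of 10 bp. When the 10 tables were limited to 10 bp in the same way, the share at Sγ1 was between 3.95% in WT 1 and 12.6% in XLF-/- 2. Which region the listed junctions come from is not stated, so the lists were set beside the tables and not compared with them. Neither list was matched to a plotted genotype, so both are named by label alone.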

How the data were processed

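The authors ran their HTGTS pipeline, with Bowtie2 per the labels, mapped the C57BL/6 libraries to mm9 and deposited 1 row per junction for 13 libraries, with positions, strands, alignments and flags. For 2 libraries the authors deposited MH lengths with a count and a percent for each length. MH was computed here as the last bait base minus the first prey base on the read, plus 1. Negative values are insertions and were left out. A mismatch or gap was read from the alignment strings, and mm9 bases were rebuilt from matched read bases. Core Sγ1 follows the limits drawn in the study's plots. Rows flagged as duplicates or for mapping quality were kept. Differences between members and junctions with MH of 0 to 5 bp were tested per library by two-sided exact sign-flip permutation (smallest p 0.00195), and label effects by exact permutation within strata, with Benjamini-Hochberg adjustment over 8 tests at 0.05. Of these 8, the tests of bait span, AGCT and G concern bait bases that the rule used, so their values are described without p. Their p entered the adjustment, so the adjusted p of the other tests depends on them. Replicates are separate libraries, which the study describes as separate mice. Positions and words were named by count, as the 5 commonest positions and the 8 commonest and 5 longest words. Inversional and exact examples were named after their values were seen. The members and lists were chosen with earlier results of these data known. Scripts ran under Python 3.11.15 with scipy 1.17.1, pandas 2.3.3 and numpy 2.4.6 and were tested on simulated junctions.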

Additional observations from a re-analysis of the deposited data

Results flagged for a closer look

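The 129s libraries, which enter no comparison of Sγ1, also held long MH, above the 3 counts that a count of 0 allows. It made up 3.51% (interval 2.81 to 4.38%) of 2137 chromosome 12 junctions without insertion in WT 129s 1, 4.30% (interval 3.69 to 5.01%) of 3625 in WT 129s 2 and 4.34% (interval 3.51 to 5.35%) of 1913 in WT 129s 3, a mean of 4.05% ± 0.469 (SD, n = 3). These were taken over the whole chromosome, since the coordinates of these tables differ from those of the others. Over chromosome 12, the C57BL/6 libraries plotted as WT had 2.95% in WT 1, 3.79% in Shld1-/- 2 and 3.68% in XLF-/- 3, and the other 7 libraries had 6.17% to 9.80%.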

How the results depend on the processing

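The median share of long MH over libraries was 9.75% and moved to 16.1% with a minimum of 5 bp and to 4.98% with 7 bp. With a minimum of 5 bp (exact permutation tests), the inversional difference shrank to -0.647 points (adjusted p = 0.846) and the downstream difference was -3.08 points (adjusted p = 0.168). At this minimum, the mapping-quality mark differed by 1.90 points (exact permutation test, adjusted p = 0.328) and bait span by -3.55 bases. The AGCT difference was 5.04 points, which is the opposite sign. So was the sign of the XLF label effect on inversions (2.14 points, exact permutation test, adjusted p = 0.883). With 7 bp (exact permutation tests), the mark differed by 8.19 points (adjusted p = 0.141) and G by 0.627 points. With identical junctions collapsed, the downstream difference was -5.94 points, that in the mark 5.65 points and that in AGCT 0.130 points. Without rows marked for mapping quality, they were -5.69 points for downstream, -1.90 bases for bait span and 1.54 points for AGCT. AGCT also turned sign without rows marked as duplicates (0.0332 points) and for GAGCT (0.0949 points). After the data were seen, exact overlaps were taken alone and MH was trimmed to exact runs. By the exact permutation test, the inversional difference was then -7.59 points (adjusted p = 0.0260) and -7.13 points (adjusted p = 0.0312), and the AGCT difference -3.80 and -4.10 points. The causes of these changes were not tested.

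With each library left out in turn, the inversional difference ranged from -8.24 to -5.40 points and passed the threshold only without WT 1, and the XLF label effect ranged from -8.75 to 3.13 points, above 0 without Shld1-/- 3 or Shld1-/-XLF-/- 1. The SHLD1 label effect ranged from 2.46 to 14.3 points. The other differences stayed on their side of the threshold. Under the other settings, 48 of 67 test values kept direction and side of the threshold, whatever their size, and 8 of 10 medians of the share moved by less than the spread within labels. The 67 values include those of bait span, AGCT and G, which support no comparison. Small libraries limit the precision, since Shld1-/-XLF-/- 3 had 29 members. Members and shorter junctions were paired within libraries, whereas libraries of different genotype labels were not paired, since the labels carry no replicate numbers.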
